A study of Rattus norvegicus with 12 samples.

Results

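The 48 cytosolic ribosomal protein genes of a rat array were followed in cultures of cerebellar granule neurons. They were taken by symbol: every gene whose probe set carries 1 symbol of the Rpl or Rps series, or is Rplp0, Rplp1, Rplp2 or Rpsa, with the Rps6k kinases left out. They make up 48 of 14217 named genes, with 33 genes of the large subunit and 15 of the small subunit, and 55 of the 31099 probe sets. Another 36 probe sets list a ribosomal protein among several symbols and were left out by this rule, so that Rplp1 and Rps19, for example, are not members.

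Total RNA was measured on 12 Affymetrix arrays, 3 in each of 4 groups, lettered A, B and C. The groups are cultures in low potassium at 3 h and at 6 h (LK_3h and LK_6h) and cultures treated with GW5074, a small-molecule kinase inhibitor known as a RAF blocker, at 3 h and at 6 h (GW_3h and GW_6h). The labels name no dose, strain or age. They leave unsaid if the GW5074 cultures also had low potassium and if a letter stands for a culture of its own, so the spread behind each p-value may be only technical. There is no group in raised potassium and no untreated group, so each time comparison is also a comparison of time in culture. The titles do not say if the 3 h and 6 h arrays share a preparation or a run. Arrays of a letter were not seen to pair across times. A time change therefore cannot be told apart from a difference of preparation or run. The title of GW_6h A carries the suffix e3 where the other titles carry e1, with no meaning given.

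Ribosomal proteins are the protein part of the ribosome: the large subunit joins amino acids and the small subunit reads the mRNA. Their mRNAs are among the most abundant of any cell and are known for a terminal oligopyrimidine (TOP) start, a C at the cap followed by a run of C and U, through which growth signalling by mTOR controls their translation. Control of these mRNAs is therefore largely by translation, which arrays of total RNA do not measure. In neurons, ribosomes supply both the cell body and the neurites, and growth factor and kinase pathways that act on survival also act on translation.

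The start of the transcript is shown for 9 members called in a comparison below and for Rplp0, a preset member that passed in none, because the TOP start is the sequence feature that these genes are best known to share. Each line gives 15 bases before and 15 bases from the annotated RefSeq start in GRCr8, 5′ to 3′ on the gene's strand. Capitals mark a run that begins with C at the start itself and goes on with at least 4 bases that are each C or T, with T in place of U.
Rpl14 (chr8:129163605-129163634, + strand): gggcgggccctctccCTTCTCgctgagcgc
Rpl22 (chr5:168117946-168117975, + strand): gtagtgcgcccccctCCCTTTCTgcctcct
Rpl28 (chr1:78083518-78083547, - strand): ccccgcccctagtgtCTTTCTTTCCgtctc
Rplp0 (chr12:46718376-46718405, - strand): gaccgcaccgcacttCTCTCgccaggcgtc
Rpl7a (chr3:30637121-30637150, + strand): ctctcctccagccgagcaagatggtgagtg
Rps3 (chr1:163195762-163195791, - strand): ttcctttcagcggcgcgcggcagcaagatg
Rpl13a (chr1:104748899-104748928, - strand): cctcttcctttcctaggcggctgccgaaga
Rpl21 (chr12:13386139-13386168, - strand): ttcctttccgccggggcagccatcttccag
Rpl18 (chr1:105325255-105325284, + strand): tctggacctggtctagcaggaggcgccatc
Rps27l (chr8:76443643-76443672, + strand): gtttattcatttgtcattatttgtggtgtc
A promoter entry was matched for 43 of the 48 members. That start motif, searched on the strand of the gene only, stood at the annotated start in 12 of 43 members, or 27.9%, against 2.63% of the 33469 promoters in the table. It began within 10 bases of the start, on either side, in 29 of the 43 (67.4%), against 28.9% of all promoters. Large subunit members held it at the start in 10 of 29 and small subunit members in 2 of 14. Of the members above, Rpl14, Rpl22, Rpl28 and Rplp0 held it at the start. In Rpl13a, before the start, and in Rpl21, after it, such a run begins within 10 bases of the annotated start. In Rpl7a, Rps3, Rpl18 and Rps27l no such run begins within 10 bases of the annotated start. In Rpl7a and Rps3, however, a run that begins further upstream ends within 10 bases of it, which this search did not count. Annotated starts can lie some bases away from the start used in these cells.

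Most members were among the brightest probe sets of the array. Probe sets were tested if their 12-array mean reached the 40th percentile of all probe sets, and 50 of the 55 member probe sets, for 45 genes (31 large and 14 small), passed. Of these, 40 had a mean deposited intensity of 1045 to 12560, with a median at the 99.73rd percentile of all probe sets, and the other 10 lay between 30.48 and 459.6. The 40 are those whose mean was at least 1000 after quantile normalisation, called bright here, and the same division is meant wherever an intensity of 1000 or more is named. It was set after the values were seen. Rps29, a small subunit protein, had the highest mean at 12560, and Rpl26 followed at 11890, but intensities of different probe sets do not rank the genes' mRNAs. The probe sets of Rpl30, Rps13 and Rpl3l, the muscle paralogue of Rpl3, and the second probe sets of Rpl14 and Rps24 did not pass, with mean intensities of 10.8 to 24.13. For Rpl28, Rpl30 and Rps13 other probe sets carry the gene beside further symbols, so the dim probe sets given here are not their only measure. The granule neuron markers Gabra6, Neurod1, Zic1, Zic2, Pax6, Slc17a7, Grin2c, Cbln1, Etv1 and Reln all passed the filter.

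Replicates lay close together for these genes after quantile normalisation. The pooled within-group SD on the log2 scale had a median of 0.0800 over the 40 bright members, against 0.142 over 1217 other bright probe sets. The members rank higher, with a median percentile of 99.73 against 97.81 for those 1217. For the 10 dim members the median SD was 0.196, against 0.243 over other dim probe sets tested. This SD was not taken on the deposited scale. A different measure there is the SD over the LK_6h arrays of the median deviation. It was 0.23 for bright large subunit genes and 0.025 for the other bright probe sets.

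One array stood apart before any comparison was made. On the deposited scale LK_6h A was the highest of the 12 arrays for 22 of the 40 bright members, and no other 6 h array was the highest for any. The median deviation of the 26 bright large subunit genes from their 12-array means was 0.24 (log2) on LK_6h A, -0.084 on LK_6h B and -0.21 on LK_6h C. For the 12 bright small subunit genes the same 3 arrays gave 0.21, -0.13 and -0.24. The other probe sets of 1000 or more did not share this, with -0.059, -0.024 and -0.072. The 5S ribosomal RNA control probe set was also highest there, at 202.2 against 66.59 to 139.7 on the other 11 arrays. Its part in the results was not tested, and results that rest on LK_6h A are given with and without it. After quantile normalisation, which gives the arrays one common distribution of values, the 3 large subunit medians were 0.070, 0.0097 and -0.046. Quantile normalisation also fixes the values of the top ranks, where these members lie, and so removes part of any shift that the brightest probe sets share.

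**Figure D1:**
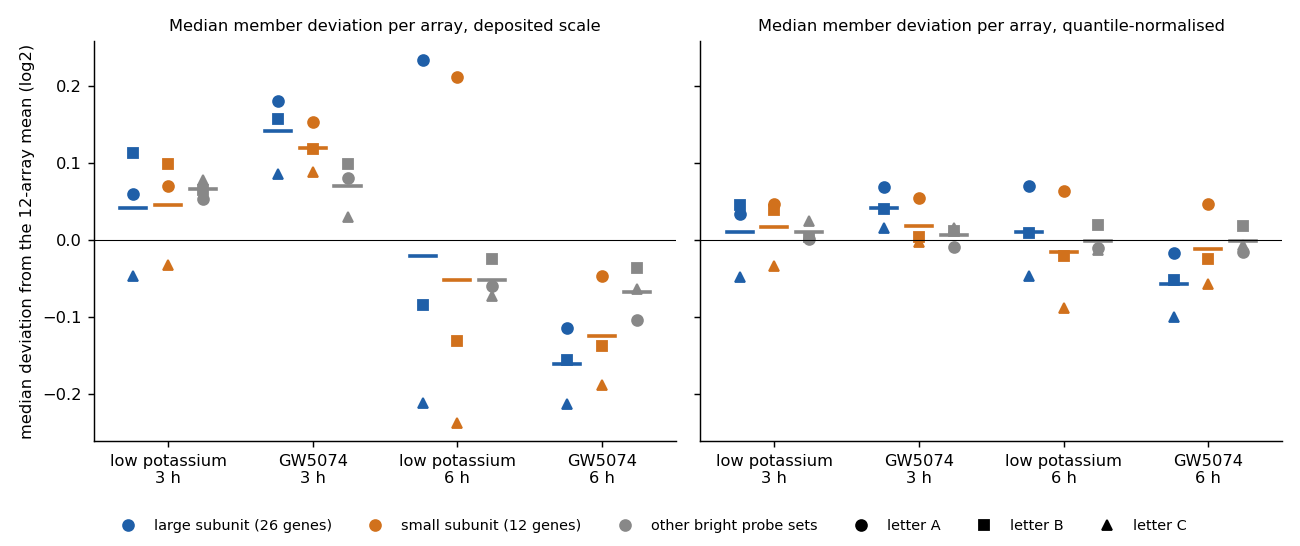
Median log2 deviation from the 12-array mean for each array, over 26 bright large subunit genes (blue), 12 bright small subunit genes (orange) and 1217 other probe sets with a quantile-normalised mean of 1000 or more (grey), on the deposited scale (left) and after quantile normalisation (right). Points are arrays with letter A, B or C as circle, square or triangle, and bars are group means. LK_6h A lies at 0.24 for the large subunit on the deposited scale, and the GW_3h arrays lie above the GW_6h arrays for both subunits there.

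The first comparison asks what GW5074 did at 3 h. No member passed the threshold: 0 of 50 probe sets had an adjusted p under 0.05 (limma on quantile-normalised log2 values, Benjamini-Hochberg over all 18625 probe sets tested), beside a background of 0% of all probe sets. At an unadjusted p under 0.05 there were 0 of 50 members, beside 1.61% of all probe sets. With the arrays of a letter taken as pairs within a time, 0 of 50 members were called as well, against a background of 0.0161% (0.00537% higher, 0.0107% lower). At an unadjusted p under 0.05 the paired fit held 2 members, or 4%, beside 6.58% of all probe sets. All 3 GW5074 arrays lay above all 3 low-potassium arrays for 3 of 50 members, beside a background of 3.19%, and below them for 0 of 50, beside 4.02%. The median change was 0.034 (log2) over 31 large subunit genes and 0.014 over 14 small subunit genes, against -0.0094 over all 10261 genes tested. On the deposited scale they were 0.090 and 0.10, with 30 of 31 and 13 of 14 genes above 0. Without GW_3h A the small subunit median after quantile normalisation was -8.64e-04, and over the arrays left out in turn it reached 0.042. After quantile normalisation, in 27 of the 31 large subunit genes and 10 of the 14 small subunit genes the value was above 0, and the bright members lay between -0.11 and 0.097. The 3 members with the smallest p were Rps27l, a paralogue of the small subunit protein Rps27 (0.38, SE 0.18), Rpl7a (0.097, SE 0.060) and Rpl7 (0.078, SE 0.061), both large subunit proteins. None passed, with an adjusted p of 1 for each in limma.

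At 6 h no member was called without pairs either, beside a background of 0%. At an unadjusted p under 0.05 there were 4 of 50 members, or 8%, beside 4.81% of all probe sets and 7.21% of those of intensity 1000 or more. With pairs within the time, 2 large subunit genes were lower with GW5074, Rpl13a and Rpl21, which is 4% of the members beside a background of 1.87% of all probe sets (0.945% higher, 0.923% lower) and 6.43% of those of intensity 1000 or more. At an unadjusted p under 0.05 the paired fit held 11 members, or 22%, beside 16.3% of all probe sets. Of the bright members it held 20%, beside 30.2% of all probe sets of intensity 1000 or more. The GW5074 arrays lay below all low-potassium arrays for 4 of 50 members, beside a background of 4.7%, and above them for 1, Rpl28, beside 5.04%. Rpl13a, a large subunit protein known in human monocytes for a second role in silencing mRNAs outside the ribosome, read 6410, 5391 and 4811 on LK_6h A, B and C and 4647, 4802 and 4006 on the GW_6h arrays. The GW5074 array was the lower one of every pair, and all 3 GW5074 arrays lay below all 3 low-potassium arrays. Its change was -0.24 (95% interval -0.43 to -0.045 without pairs), a 1.18-fold difference, with an adjusted p of 0.0187 with pairs and 0.983 without in limma. Rpl21, another large subunit protein, read 5425, 4554 and 4376 on the LK_6h arrays and 4191, 3919 and 3427 on the GW_6h arrays. These groups did not overlap either. Its change was -0.26 (-0.46 to -0.057), 1.20-fold, with an adjusted p of 0.0419 with pairs and 0.972 without in limma. Readings of single arrays, here and below, are deposited intensities, while changes are after quantile normalisation unless the deposited scale is named. Without the 6 h pair A the paired adjusted p was 0.0772 for Rpl13a and 0.151 for Rpl21, and without the 6 h pair C it was 0.102 and 0.196. The call of Rpl21 was also lost without the 6 h pair B (0.0798), the 3 h pair B (0.0514) or the 3 h pair C (0.0544). With the same pairs as a random block, neither gene passed (adjusted p = 0.0853 for Rpl13a and 0.106 for Rpl21 in limma).

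The rest of the members at 6 h showed small values. The median over large subunit genes was -0.052 (23 of 31 below 0) and over small subunit genes -0.0066 (8 of 14 below 0), against 0.015 over all genes tested. On the deposited scale these medians were -0.12 and -0.080, but without LK_6h A they were 0.0055 and 0.042. The difference between subunits was not tested.

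Whether the effect of GW5074 differed between 3 h and 6 h was asked of each member by the interaction term. None of the 50 passed in either fit. The background was 0% without pairs and 0.177% with them (0.0859% higher, 0.0913% lower; 0.775% among probe sets of intensity 1000 or more). At an unadjusted p under 0.05 there was 1 member without pairs, beside 3.46% of all probe sets, and there were 11 with pairs, or 22%, beside 13.5% of all probe sets and 25% of those of intensity 1000 or more. Rps27l had the smallest p. Its probe set read 77.25, 66.89 and 51.28 on LK_3h A, B and C, 82.55, 85.42 and 96.4 on GW_3h, 84.61, 69.34 and 75.1 on LK_6h, and 48.43, 59.55 and 34.07 on GW_6h. At 3 h all GW5074 arrays were above the low-potassium arrays, and at 6 h all were below. The difference of the effects was -0.90 (SE 0.26; adjusted p of 0.9998 without pairs and 0.129 with pairs in limma), so these opposite values do not pass as a difference between the times. Rpl14, a large subunit protein, followed at -0.29 (SE 0.14) and Rpl21 at -0.27 (SE 0.13), with paired adjusted p in limma of 0.106 and 0.193. The interaction median was -0.094 over large and -0.014 over small subunit genes, against 0.020 over all genes tested. On the deposited scale it was -0.24 and -0.17. Without LK_3h C or LK_6h A the small subunit median after quantile normalisation was above 0 (0.016 and 0.0072).

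In low potassium the comparison of 6 h with 3 h called 2 large subunit genes, Rpl18 and Rpl28. They are 2 of 50 members, both lower at 6 h, or 4% against a background of 22.7% of all probe sets (11.6% higher, 11% lower) and 29% of those of intensity 1000 or more. Rpl18, a large subunit protein, read 6463, 7465 and 6897 on the LK_3h arrays and 5823, 5511 and 4506 on the LK_6h arrays. The groups did not overlap, and the change was -0.30 (SE 0.092, adjusted p = 0.0298 in limma). Rpl28, also of the large subunit, was measured on a dim probe set and read 80.14, 88.21 and 72.37 at 3 h and 42.58, 26.67 and 36.19 at 6 h. It was lower on every 6 h array, by -0.93 (SE 0.19), 1.90-fold, with an adjusted p of 0.00395 in limma. The 6 h arrays lay all above the 3 h arrays for 6 of 50 members and all below for 4, beside backgrounds of 19.8% and 19.4%. Values were below 0 in 18 of 31 large and 8 of 14 small subunit genes, and the medians were -0.014 for the large and -0.0084 for the small subunit, against -0.044 over all genes tested. The call of Rpl28 held under all 22 alternatives, while that of Rpl18 was lost without LK_3h B (adjusted p = 0.120), LK_3h C (0.0613), LK_6h A (0.0562) or LK_6h C (0.133) in limma. Without LK_6h B, 5 members passed in place of 2, with 2 higher and 3 lower, and without LK_3h B or LK_6h C only 1 passed.

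With GW5074, 8 of 50 member probe sets passed between 3 h and 6 h, 1 higher and 7 lower, or 16% against a background of 25% of all probe sets (13.1% higher, 11.9% lower). The 6 h arrays lay all below the 3 h arrays for 17 members and all above for 1, beside backgrounds of 18.9% and 21%. Among the 40 bright members they lay all below for 15 and all above for 0. Of all 1290 bright probe sets, 361 lay all below and 340 all above. Of the 40 bright members 12.5% passed, against 36.2% of all probe sets of that brightness. The 7 that fell were Rpl18, Rpl22, Rpl14, Rpl7a and Rpl28 of the large subunit and Rps3 and Rps27l of the small subunit.

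Rpl18 fell from 7828, 7579 and 6734 on GW_3h A, B and C to 4651, 5129 and 4075 on the GW_6h arrays. Every 6 h array was below every 3 h array. After quantile normalisation the change was -0.45 (SE 0.092), 1.37-fold, with an adjusted p of 0.00356 in limma. On the deposited scale, in which the readings are given, the change was -0.68. Rpl22, a large subunit RNA-binding protein with a paralogue, Rpl22l1, fell from 5629, 5248 and 5077 to 3780, 3672 and 3637. Its 3 arrays at 6 h were nearly equal. The change was -0.34 after quantile normalisation (SE 0.097, adjusted p = 0.0210 in limma) and -0.52 on the deposited scale. In low potassium the same gene read 4961, 4947 and 5037 at 3 h and 5131, 3770 and 3601 at 6 h. LK_6h A alone was above the 3 h arrays there, and without it Rpl22 passed in low potassium too (-0.30, adjusted p = 0.0183 in limma).

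Rps3, a protein at the mRNA entry of the small subunit that is also known as a DNA repair endonuclease, fell from 8790, 8340 and 7267 to 5799, 5958 and 5337. The change after quantile normalisation was -0.29 (SE 0.077, adjusted p = 0.0158 in limma), and no 6 h array reached the 3 h range. Rpl7a fell from 11510, 10660 and 11090 to 8834, 8240 and 8493, by -0.20 (SE 0.060, adjusted p = 0.0224 in limma). Rpl14 went from 3969, 4020 and 3359 to 2845, 2910 and 2478, a change of -0.30 (SE 0.096, adjusted p = 0.0349 in limma). For both genes the ranges of the 3 h and 6 h arrays were apart, and in low potassium neither passed (-0.053 and -0.014). On the deposited scale the changes with GW5074 were -0.51 for Rps3, -0.38 for Rpl7a and -0.46 for Rpl14.

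Of the dim members, Rps27l, whose mammalian gene is a known p53 target, fell the furthest, from 88.1 ± 7.31 to 47.4 ± 12.8 (SD, n = 3 each). That was -0.72 (SE 0.18), 1.65-fold, with an adjusted p of 0.0116 in limma, while its change in low potassium was 0.18 (SE 0.18) and did not pass. Rpl28 read 83.84, 84.5 and 75.48 at 3 h and 39.35, 42.48 and 63.05 at 6 h, -0.58 (SE 0.19, adjusted p = 0.0359 in limma). Rpl18 and Rpl28 were the members that passed as lower at 6 h in both treatments. The probe set that rose was the dimmer of 2 for Rpl7l1, a nucleolar relative of Rpl7 with a role in making the large subunit. It read 320.1, 304.4 and 294.8 at 3 h and 480.1, 429.5 and 377.2 at 6 h, higher on every array, by 0.41 (SE 0.13, adjusted p = 0.0353 in limma). The brighter Rpl7l1 probe set gave 0.29 (SE 0.15) and did not pass, and in low potassium the dimmer one gave 0.37 and the brighter one 0.34, neither of which passed.

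**Figure D2:**
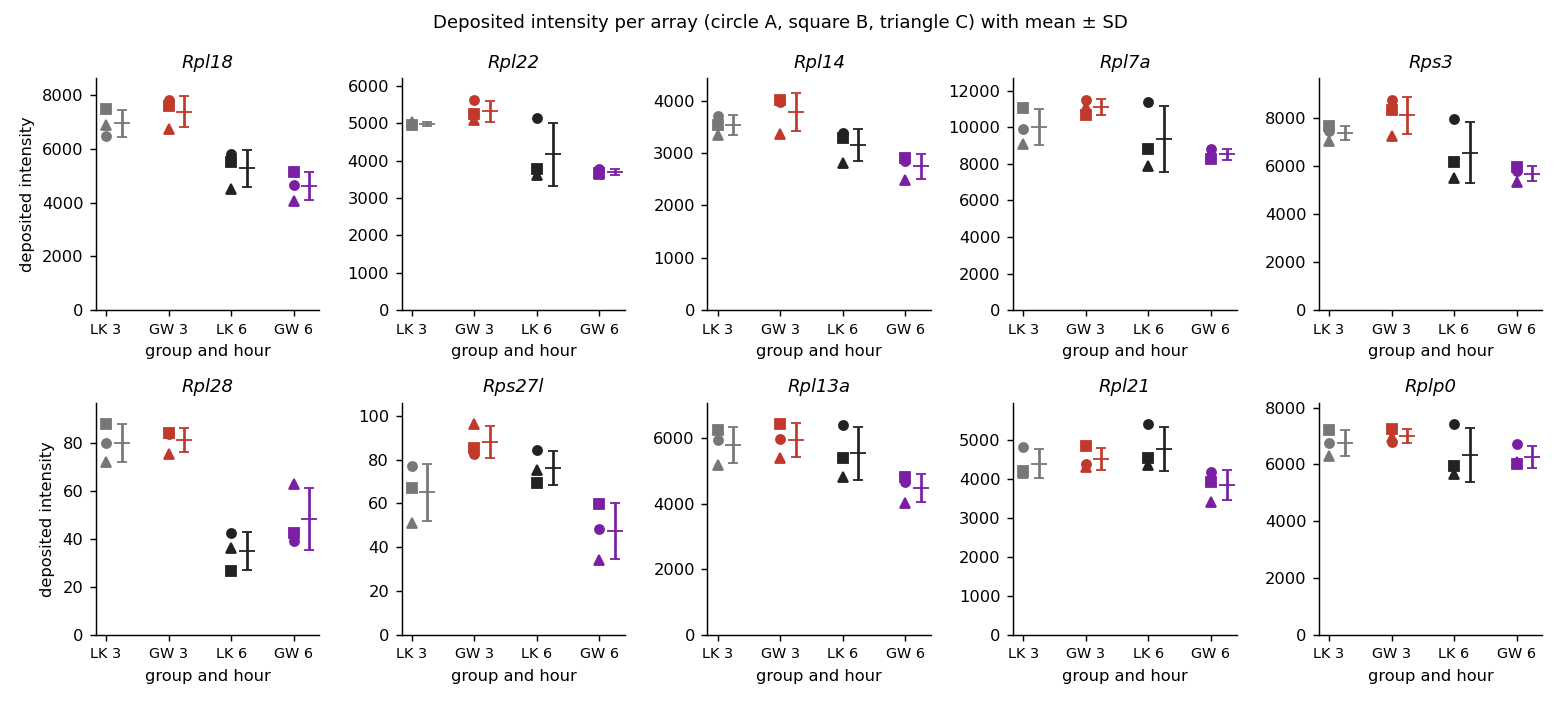
Deposited intensity of 10 members on each of the 12 arrays (linear axes from 0), by treatment and hour, with group mean ± SD beside the points. Rpl18, Rpl22, Rpl14, Rpl7a, Rps3, Rpl28 and Rps27l are lower at 6 h than at 3 h with GW5074, Rpl13a and Rpl21 are lower with GW5074 at 6 h, and Rplp0 passed in no comparison.

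Among these 8 calls, that of Rpl18 alone held under all of its alternatives, 23 in number (highest adjusted p = 0.0292 in limma). Without GW_6h C that of Rps27l was lost (0.0535). The calls of Rps3 and Rpl22 were lost without GW_3h A (0.0746 and 0.0798), GW_3h B (0.0543 and 0.0504) or GW_6h C (0.0669 and 0.0592). Rpl14 was lost without GW_3h A (0.108), GW_3h B (0.127), GW_6h A (0.0617) or GW_6h C (0.145), and Rpl28 without GW_3h A (0.104), GW_3h B (0.110), GW_6h A (0.136) or GW_6h B (0.0883). Rpl7a lost its call without GW_3h A (0.0811), GW_3h C (0.0675) or any of the GW_6h arrays (0.0543 to 0.0556). The Rpl7l1 probe set lost its call without any GW_3h array (0.0675 to 0.0935), GW_6h A (0.144) or GW_6h B (0.0600). The count of members called ranged from 2 to 8 with 1 array left out.

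**Figure D3:**
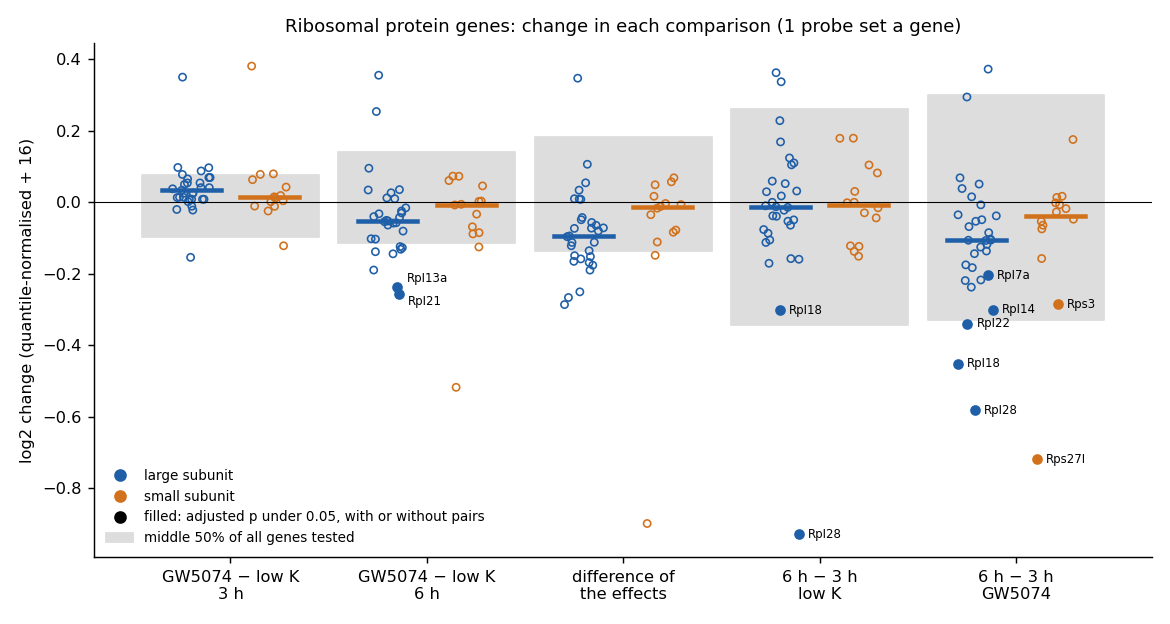
Log2 change of each of 31 large subunit (blue) and 14 small subunit (orange) genes, 1 probe set a gene, in the 5 comparisons after quantile normalisation. Bars are medians, grey boxes hold the middle 50% of all genes tested, and filled named points passed at an adjusted p under 0.05 with or without pairs. Large subunit medians run from 0.034 for GW5074 at 3 h to -0.11 for 6 h against 3 h with GW5074, and most points lie inside the grey boxes.

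How many members fell with GW5074 between the times depended on the scale. The medians after quantile normalisation were -0.11 for large subunit genes (25 of 31 below 0) and -0.037 for small subunit genes (11 of 14 below 0), against -0.017 over all genes tested. On the deposited scale they were -0.31 and -0.25, while the median of all genes was -0.014. There, 23 of 50 members passed, 22 lower and 1 higher, against a background of 26% of all probe sets (14% higher, 12% lower). Of the 40 bright members 50% fell and none rose, while of all probe sets of that brightness 30.4% fell and 10.9% rose (41.3% together). For 39 of these 40 every GW_6h array lay below every GW_3h array, beside 42.9% of all probe sets of that brightness and 18.9% of all tested. The 99th percentile of intensity, over all probe sets, was 3276 to 3488 on the GW_3h arrays and 2985 to 3032 on the GW_6h arrays. In low potassium it was 3336 to 3407 at 3 h and 3042 to 3072 at 6 h. Bright probe sets in general were thus lower at 6 h on that scale in both treatments.

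In low potassium the deposited scale gave 3 calls of 50, Rpl18 and Rpl28 lower and the Rpl7l1 probe set higher, against a background of 23.5% (12.8% higher, 10.7% lower). Among bright probe sets the background was 33.2%, with 9.84% higher and 23.3% lower, and 1 of the 40 bright members passed. The medians there were -0.081 and -0.066. Without LK_6h A, 15 of 50 members passed, all lower, against a background of 14.7% and of 6.79% for falls, and the medians were -0.19 for both subunits. The 15 were probe sets of Rpl6, Rpl18, Rpl19, Rpl22, Rpl23, Rpl27a, Rpl28, Rpl41, Rps3, Rps3a, Rps6, Rps23, Rps28 and Rpsa, the last with 2 probe sets. Of the bright members 35% fell, against 16.9% of all bright probe sets. With GW5074 the same fit called 34 members, 33 lower, against a background of 25.6% and of 12% for falls. Of the bright members 77.5% fell there, against 33.9% of all bright probe sets. LK_6h A is in neither GW5074 group, and the changes were the same with and without it, as for Rps3 at -0.51. These added calls reflect the estimate of spread that the groups share, and the falls were no larger. The SD of the large subunit median over arrays was 0.23 in LK_6h and 0.050 in GW_6h. Whether the time changes differ between the treatments is the interaction, in which no member passed without pairs on either scale.

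Members with a known special role were described by a preset list. Rpl5, Rpl11, Rpl23 and Rpl26, which in human and mouse cells bind Mdm2 and thereby stabilise p53, passed in none of the 5 comparisons after quantile normalisation. From 3 h to 6 h with GW5074 their changes were -0.11, -0.14, -0.10 and -0.049, and on the deposited scale Rpl5, Rpl11 and Rpl23 passed as lower (-0.35, -0.37 and -0.31; adjusted p = 0.0344, 0.00500 and 0.0215 in limma). Rps6, the small subunit protein that S6 kinases phosphorylate downstream of mTOR, changed by -0.15 in low potassium and -0.16 with GW5074, not passing, and by -0.39 with GW5074 on the deposited scale (adjusted p = 0.0143 in limma). Rplp0, which anchors the stalk where elongation factors bind, gave -0.038 in low potassium and 0.068 with GW5074 from 3 h to 6 h. Rpl3, near the peptidyl transferase centre, gave -0.039 and 0.015, and Rpsa, a small subunit protein also known as the laminin receptor, gave -0.12 and -0.053. None of these 3 passed after quantile normalisation, though 1 of 3 Rpsa probe sets passed as lower with GW5074 on the deposited scale (-0.31, adjusted p = 0.0480 in limma). Rpl39, which lines the exit tunnel, passed in no comparison, and its LK_3h arrays read 175.1, 42.54 and 174.3. That probe set had an SE of 0.54 for each difference between groups. In all, 6 members are measured by more than 1 probe set. After quantile normalisation only Rpl14 and Rpl7l1 of them had a call, each on 1 probe set, so calls in opposite directions could not arise. For Rpl7 the probe sets differed in direction with GW5074 on the deposited scale. The brighter went from a mean of 7452 at 3 h to 5944 at 6 h, and the dimmer from 233.6 to 257.2.

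Other genes of translation were counted in the same way between 3 h and 6 h, each by its brightest probe set. Of 10261 genes tested, 25.6% passed in low potassium (1174 higher, 1450 lower) and 27.6% with GW5074 (1381 higher, 1448 lower). Of the 45 cytosolic ribosomal protein genes 4.44% passed in low potassium (0 higher, 2 lower) and 15.6% with GW5074 (0 higher, 7 lower). Ribosome biogenesis and RNA polymerase I genes, which build the subunits in the nucleolus, had 12 of 29 lower and 0 higher in low potassium (median -0.44) and 11 lower and 0 higher with GW5074 (median -0.42). Fbl, the rRNA methyltransferase fibrillarin, fell, at -1.28 in low potassium and -1.45 with GW5074 (log2), and so did Nhp2, a protein of the box H/ACA particles, at -0.90 and -0.87 (adjusted p = 0.00156, 6.11e-04, 0.00196 and 0.00188 in limma). Bop1, which is needed for large subunit maturation, changed by -0.77 and -0.87 and passed in both (adjusted p = 0.00976 and 0.00480 in limma). Among 40 initiation factor genes 18 fell and 1 rose in each treatment (medians -0.33 and -0.39), with Eif2s2, the beta subunit of eIF2, at -0.76 and -1.08 (adjusted p = 0.00284 and 3.30e-04 in limma). The riser was Eif4a2, an eIF4A helicase, at 0.43 and 0.39 (adjusted p = 0.00140 and 0.00180 in limma).

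Mitochondrial ribosomal proteins, which form a separate ribosome inside mitochondria, had 15 of 73 lower and 3 higher in low potassium and 22 lower and 1 higher with GW5074 (medians -0.21 and -0.26). Mrps26 gave -1.03 and -0.92 (adjusted p = 9.10e-04 and 0.00130 in limma), and Mrps6 gave -0.80 and -0.94 (0.00143 and 4.61e-04). Of 19 mTOR and TOP mRNA regulators 3 rose and 6 fell in low potassium, and 4 rose and 5 fell with GW5074. Eif4ebp1, the translation repressor that mTOR inactivates, was -2.30 and -2.45 (adjusted p = 7.52e-04 and 3.61e-04 in limma), and Sesn1, a stress-induced mTOR inhibitor, 1.35 and 1.29 (9.00e-04 and 8.45e-04). Larp1, which binds TOP mRNAs, fell by 1.38 in low potassium (adjusted p = 0.00293 in limma). At 6 h it was 0.70 higher with GW5074 than without it, passing with pairs only (adjusted p = 0.0232 with pairs and 0.983 without in limma). Its difference of the effects at 6 h and 3 h did not pass (adjusted p = 0.113 with pairs in limma). Other genes of these lists passed at 6 h with pairs as well. Eef1a2 and Mrps2 were higher with GW5074, and Ncl, Mrpl54 and Mrps18c were lower. Of all 10261 genes tested, 112 were higher and 87 lower in that fit. Elongation factors, which also carry TOP starts, had 1 of 6 lower in low potassium and 1 higher and 1 lower with GW5074. Tpt1 was on the same list but had no probe set under its symbol alone, so it was not tested. Eef1d, a subunit of the exchange factor, fell by 0.46 and 0.43, and Eef1a2, the neuronal and muscle form of eEF1A, rose by 0.41 with GW5074 (adjusted p = 0.0304, 0.0376 and 0.0233 in limma). Rack1, a ribosomal scaffold protein outside the symbol rule, gave -0.23 and -0.20 and passed in neither. The lists share no test against each other, so the counts describe them only.

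**Figure D4:**
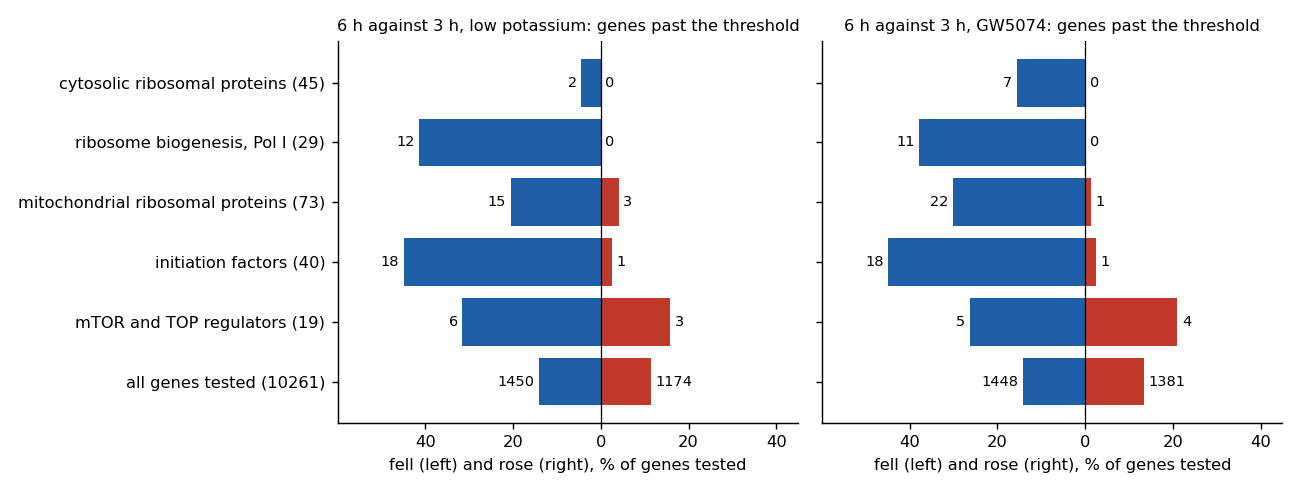
Percent of genes tested that fell (left bars) and rose (right bars) from 3 h to 6 h at an adjusted p under 0.05, in low potassium and with GW5074, with the number of genes beside each bar and genes tested in brackets. Of 45 cytosolic ribosomal protein genes 2 and 7 fell, against 12 and 11 of 29 ribosome biogenesis genes and 18 and 18 of 40 initiation factor genes. Of all 10261 genes tested 1450 and 1448 fell.

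Some cell type markers moved with time as well, and the part of cell types in these results was not tested. The summed intensity of the 10 granule neuron markers was 7892 to 9935 on GW_3h arrays and 14420 to 17890 on GW_6h arrays. The low-potassium arrays gave 8780 to 10970 at 3 h and 14010 to 16070 at 6 h. All 10 passed as higher with GW5074 and 4 of 10 in low potassium. The background for these and the next counts was 27.6% of all genes tested with GW5074 and 25.6% in low potassium, in either direction. Summed intensities of 8 astrocyte markers were 1793 to 2325 at 3 h and 2995 to 4742 at 6 h, with 7 tested and 1 higher in each treatment. The median change of the 7 was only 0.065 in low potassium and -0.013 with GW5074 (log2), so the sums do not stand for most of these markers. Summed intensities of 7 oligodendrocyte lineage markers were 2589 to 3863 at 3 h and 1794 to 2711 at 6 h, with 1 of 6 tested lower in each treatment. Markers of microglia (302.6 to 678 over all arrays, Aif1, Cx3cr1, Ptprc and Itgam below the filter), of endothelial cells and fibroblasts (135.9 to 299.5, Lum, Flt1, Dcn and Pecam1 below it) and of dividing cells (1302 to 1657, Top2a below it) had no call in either treatment. Purkinje and GABAergic markers summed to 894 to 1282, with 1 of 6 lower in each. The 3′ minus 5′ difference of the actin control, a sign of RNA integrity, was 0.87 to 1.36 (log2) on GW_3h and 1.06 to 1.17 on GW_6h. GW_3h C alone made these ranges overlap, since GW_3h A and B (0.868 and 0.914) lay below all GW_6h arrays. In low potassium the actin ranges overlapped, at 0.846 to 1.066 on LK_3h and 0.974 to 1.023 on LK_6h. The same difference of the GAPDH control overlapped with GW5074, at 0.087 to 0.238 on GW_3h and 0.145 to 0.163 on GW_6h. The part of these measures in the results was not tested. In RNA from whole cultures, fewer cells of a type and less RNA per cell cannot be told apart.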

How the data were processed

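Each array was deposited as linear intensity values, 1 for a probe set. The deposited intensity has a mean of 150 on every array once 2% of probe sets are trimmed from each end, read from the values. How probes were summarised is not stated in the labels. Probe sets were named by a platform table, and 20826 of 31099 carry 1 symbol.

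All 12 arrays were quantile-normalised without control probe sets and tested as log2(deposited intensity after normalisation + 16), so that fold changes of dim probe sets are understated. Probe sets with a mean at or above the 40th percentile (18625) were tested with limma 3.58.1 in R 4.3.3 (lmFit, eBayes with a mean-variance trend, 4 group means, two-sided), with Benjamini-Hochberg adjustment at 0.05 over all of them. Precision is limited by the number of arrays. Deposited intensities are given as read.

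In a second fit the letter within a time was a block. The letters in the titles pair the arrays: with group means subtracted, same-letter arrays of the 2 treatments correlated by 0.21 to 0.542 at 3 h and 0.293 to 0.65 at 6 h across probe sets, against at most 0.0603 for different letters. Across times the same letter gave -0.0668 to 0.182, and no such pairing was used. Residual degrees of freedom were 8 without and 4 with the block.

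A gene is represented by its brightest probe set, and all probe sets enter the counts. Members named are those past the threshold in either fit, the 3 of smallest p where none passed, and 27 preset members with known roles, of which 13 were tested. The Rpl7l1 probe set that rose falls outside that rule and was named after its value was seen. From the other lists up to 4 genes of smallest p were considered. Members and lists were chosen with earlier results of these data known. Promoter sequences are from RefSeq, build GRCr8. Alternatives were other scaling, pseudocounts, filters, no trend, other blocks, and leaving out arrays. The fit was tested on simulated data. Figures used matplotlib 3.10.9 in Python 3.11.15.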

Additional observations from a re-analysis of the deposited data

How the results depend on the processing

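No direction of a called value turned under any alternative run. The counts of members called for GW5074 without pairs stayed at 0 at 3 h, at 6 h and for the difference of the effects, except that the fixed replicate block within time called 2 members at 6 h, and as a random block it called 0. In that paired fit the 6 h count was 1 with a pseudocount of 1, 0 with no filter on dim probe sets, 0 with no mean-variance trend, and 0 to 2 with 1 pair left out, while the paired counts at 3 h and for the difference stayed at 0. The low-potassium time count of 2 was 6 (3 higher, 3 lower) with the replicate block by letter over both times, although the letters do not pair the arrays across times, 1 without the filter, 1 without the trend, 5 without both 6 h arrays of letter B, 15 on the deposited scale without LK_6h A, and 1 to 5 with 1 array left out. The GW5074 time count of 8 was 23 with the deposited scaling, 34 with that scaling and without LK_6h A, 12 (1 higher, 11 lower) with the replicate block by letter over both times, 4 without the filter, 4 without the trend, 4 without both 6 h arrays of letter A, 13 of 85 with the probe sets of several symbols, and 2 to 8 with 1 array left out. Of the called members, Rpl18 (GW5074, 6 h against 3 h) and Rpl28 (low potassium) kept their calls under all alternatives run, 23 and 22.

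With the deposited scaling the large and small subunit medians were 0.090 and 0.10 for GW5074 at 3 h, -0.12 and -0.080 at 6 h, -0.24 and -0.17 for the difference of the effects, and -0.31 and -0.25 for time with GW5074, and the large subunit median for time in low potassium was -0.081. With LK_6h A left out as well they were 0.0055 (large) for GW5074 at 6 h and -0.193 and -0.194 for time in low potassium, while the values for GW5074 at 3 h and for time with GW5074 were as with all arrays. With 1 array left out after quantile normalisation, the large subunit median for time with GW5074 ran from -0.12 to -0.084 and the small subunit median from -0.064 to -0.011. For GW5074 at 6 h they ran from -0.080 to -0.0043 and from -0.052 to 0.027. The cause of these changes was not tested. The settings without LK_6h A on the deposited scale, without both 6 h arrays of letter A, with probe sets of several symbols, with bright members alone, and those of the paired fit were chosen after seeing the data. No array has a measure of its own error here, so 3 arrays a group set the limit, and members near the filter have the least signal over background.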
